A study of Lytechinus variegatus with 8 samples.

Results

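Of the 26814 genes in the deposited count table, 6 genes with muscle names were followed across the spines of the sea urchin Lytechinus variegatus. They are troponin T-like LOC121421391, myosin light chain kinase (MLCK), smooth muscle-like LOC121424934, cysteine and glycine-rich protein 1-like (CSRP1-like) LOC121421073, PDZ and LIM domain protein 3-like (PDLIM3-like) LOC121432010, twitchin-like LOC121418826 and paramyosin-like LOC121426309. They were chosen by name from the contrast between the spine types, with their counts in both known, so the difference between secondary and primary spines is described for them and not tested. Reads were counted in 4 libraries of secondary spines and 4 libraries of primary spines. Both kinds came from the same 4 wild-caught, wild-type animals of the white-and-green color morph, with 100 secondary spines or 50 primary spines pooled per animal and library. The library numbers 1 to 4 are used below as animals 1 to 4. Libraries held 9252184 to 10902546 counted reads, and levels are given as counts per 1000000 (CPM) scaled by the TMM method, with SD over 4 libraries.

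Sea urchin spines sit on ball joints and are moved by a ring of muscle at their base, beside a collagenous catch ligament that can stiffen. Muscle contracts when myosin of the thick filament pulls on actin of the thin filament. Troponin with tropomyosin gates the thin filament by calcium, and MLCK switches myosin on by phosphorylating its regulatory light chain. Paramyosin forms the core of thick filaments in many invertebrates, and twitchin is a giant kinase of the titin family that is best known from nematode and molluscan muscle. PDLIM3 and CSRP proteins are LIM-domain proteins that in vertebrates bind alpha-actinin and the Z-disc or actin bundles. Whole spines were collected, so a lower level in these bulk samples cannot tell fewer muscle cells from less RNA per cell.

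Of the 6 genes, 4 were almost absent from primary spines. The mean level in primary spines was 1.97% of that in secondary spines for troponin T-like, 1.76% for MLCK-like, 3.60% for CSRP1-like and 1.79% for PDLIM3-like. For twitchin-like it was 18.7% and for paramyosin-like 30.3%, and both of these had reads in all 4 primary libraries, so these 2 genes were lower but not nearly absent there. In all 6 genes every secondary library lay above every primary library, as it did in 9.47% of the 16788 genes tested, and this separation is a property the genes were chosen for. The primary reads that did exist for troponin T-like, MLCK-like, CSRP1-like and PDLIM3-like came mostly from animal 1, whose secondary spines also had the highest levels.

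**Figure D1:**
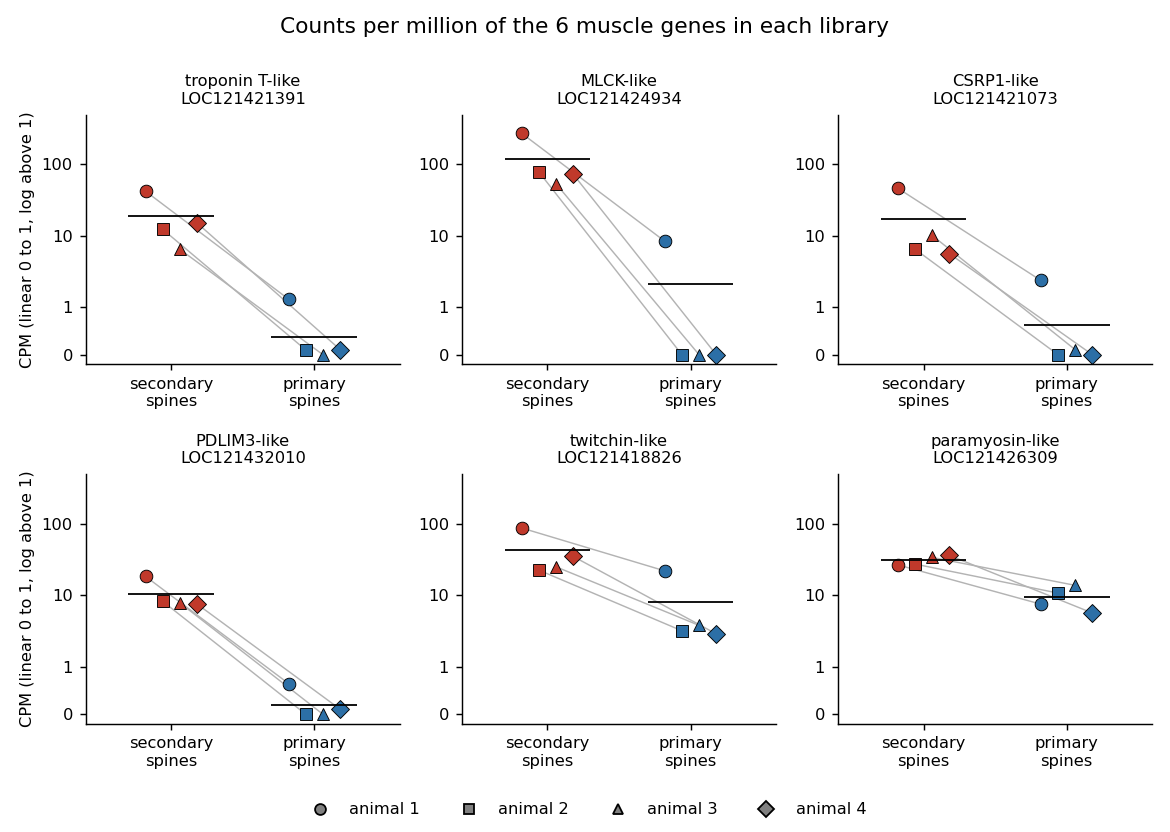
CPM (vertical axis, linear from 0 to 1 and logarithmic above 1) of the 6 muscle genes in secondary spines (left in each panel) and primary spines (right). Each symbol is 1 library, its shape marks the animal, grey lines join the 2 libraries of an animal, and black bars are means of 4. Animal 1 (circles) was highest in both spine types for 5 genes, whereas paramyosin-like ran from 26.76 to 36.37 CPM in secondary spines and from 5.662 to 13.82 CPM in primary spines.

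Troponin T-like LOC121421391 (assembly Lvar_3.0, chromosome 9, 25300595 to 25313641, minus strand) is named after the subunit that ties the troponin complex to tropomyosin. Its deposited description gives no Swiss-Prot match and no protein domain, so this identity rests on the product name alone. The gene had 434, 121, 65 and 172 reads in secondary libraries 1 to 4, against 12, 1, 0 and 1 reads in primary libraries 1 to 4. In secondary spines the level averaged 19.0 ± 15.8 CPM, against 0.374 ± 0.613 CPM in primary spines (SD, n = 4 each). The fitted log2 fold change was 5.63 ± 1.08 (SE), and it was 4.88 without secondary library 1. Animal 1 held 54.8% of the secondary reads and 85.7% of the primary reads of this gene.

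MLCK-like LOC121424934 (chromosome 1, 81699795 to 81721815, minus strand), the kinase of the regulatory light chain, had the highest mean level per length of the 6 in secondary spines. Secondary libraries 1 to 4 had 272.8, 78.6, 53.5 and 72.8 CPM, against 8.39 CPM in primary library 1 and no read in primary libraries 2, 3 and 4. A count of 0 in those libraries allows levels of up to 0.299, 0.316 and 0.320 CPM, taken as 3 reads per library. These limits cover counting error only. Within animal 1 the secondary level was 32.5 times the primary one (95% counting interval 26.0 to 41.3). In animals 2, 3 and 4 it was 263, 169 and 227 times the level that 3 reads in the primary library would give. The lower 95% counting bounds of the secondary over primary ratio in those animals were 213, 137 and 184. The means were 119 ± 103 CPM in secondary spines and 2.10 ± 4.20 CPM in primary spines, a log2 fold change of 5.83 ± 1.53 that was 5.02 without secondary library 1 and 6.56 with the animal as a block. All 78 primary reads lay in animal 1.

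Twitchin-like LOC121418826 (chromosome 1, 61270141 to 61400354, plus strand) kept a clear level in primary spines. Its secondary libraries 1 to 4 had 87.9, 22.6, 25.1 and 35.1 CPM, against 22.1, 3.19, 3.80 and 2.89 CPM in primary libraries 1 to 4. Primary spines of animal 1 thus reached almost the level of the secondary spines of animal 2, and the lowest secondary library was 1.02 times the highest primary one. Within animals 1 to 4 the secondary level was 3.99, 7.08, 6.62 and 12.2 times the primary level. The log2 fold change was 2.42 ± 0.79, with 1.79 when secondary library 1 was left out, 3.70 when primary library 1 was left out and 3.07 without animal 1.

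Paramyosin-like LOC121426309 (chromosome 1, 86305053 to 86331991, plus strand) was the even one of the 6. Its identity, too, rests on the product name alone, with no Swiss-Prot match and no protein domain in the deposited description. Secondary libraries 1 to 4 had 26.8, 27.5, 34.1 and 36.4 CPM, against 7.53, 10.8, 13.8 and 5.66 CPM in primary libraries 1 to 4. The SD was 15.4% of the secondary mean, compared with 50.2 to 114% for the other 5 genes. Its log2 fold change was 1.72 ± 0.29, and within animals 1 to 4 the secondary level was 3.55, 2.55, 2.47 and 6.42 times the primary level. Animal 1 was the lowest of the secondary libraries here, and animal 3 the highest of the primary ones.

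CSRP1-like LOC121421073 (chromosome 9, 16490416 to 16515670, minus strand) had the largest spread over secondary libraries relative to its mean, with an SD of 114% of the mean. It had 479, 64, 102 and 64 reads in secondary libraries 1 to 4, against 22, 0, 1 and 0 reads in primary libraries 1 to 4. The means were 17.2 ± 19.6 CPM in secondary spines and 0.618 ± 1.17 CPM in primary spines, with a log2 fold change of 4.78 ± 1.38 that was 3.57 without secondary library 1. Animal 1 held 67.6% of the secondary reads, and its level was 6.26 times the mean of the other secondary libraries.

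PDLIM3-like LOC121432010 (chromosome 18, 14112017 to 14126519, minus strand) had 190, 81, 79 and 86 reads in secondary libraries 1 to 4, against 6, 0, 0 and 1 reads in primary libraries 1 to 4. Levels averaged 10.5 ± 5.28 CPM in secondary spines and 0.188 ± 0.309 CPM in primary spines. The log2 fold change was 5.73 ± 0.95. Outside animal 1 its secondary libraries were close to each other, at 7.56 to 8.24 CPM, and no primary library reached 10 reads. For troponin T-like, MLCK-like, CSRP1-like and PDLIM3-like, a fold change fitted without primary library 1 rests on 0 to 2 primary reads in all and is therefore not given.

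Per length, in the authors' FPKM, the order of levels in secondary spines was MLCK-like at 23.5 ± 20.2, troponin T-like at 14.2 ± 11.8, paramyosin-like at 11.3 ± 1.71, CSRP1-like at 9.19 ± 10.5, PDLIM3-like at 6.34 ± 3.18 and twitchin-like at 2.52 ± 1.81. Neighbours in this order lay within 1 SD of each other except PDLIM3-like and twitchin-like, which were apart by more than the larger of their SDs. In primary spines paramyosin-like came first, at 3.44 ± 1.33 FPKM, and twitchin-like, MLCK-like, CSRP1-like, troponin T-like and PDLIM3-like followed at 0.474 ± 0.558, 0.415 ± 0.830, 0.333 ± 0.629, 0.282 ± 0.462 and 0.114 ± 0.188 FPKM. Apart from paramyosin-like, these primary values had SDs larger than their means.

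The spread over animals was shared. Animal 1 was the highest library in both spine types for 5 of the 6 genes, a position that 14% of all tested genes had, and 9.12% of those whose secondary libraries all lay above their primary ones. Secondary library 1 was at least 2 times the mean of the other secondary libraries for the same 5 genes, against 5.87% of all tested genes and 3.58% of those with the groups apart. The ratio was 3.73 for troponin T-like, 3.99 for MLCK-like, 6.26 for CSRP1-like, 2.34 for PDLIM3-like and 3.19 for twitchin-like, and 0.820 for paramyosin-like. Animals 2 to 4 had no common order: among secondary libraries animal 3 was the lowest for troponin T-like and MLCK-like, animal 4 for CSRP1-like and PDLIM3-like, and animal 2 for twitchin-like. The biological coefficient of variation fitted to each gene exceeded that of 93.9% of tested genes for troponin T-like, 99.3% for MLCK-like, 97.8% for CSRP1-like, 86.2% for PDLIM3-like and 89.7% for twitchin-like, and that of 43.1% for paramyosin-like.

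**Figure D2:**
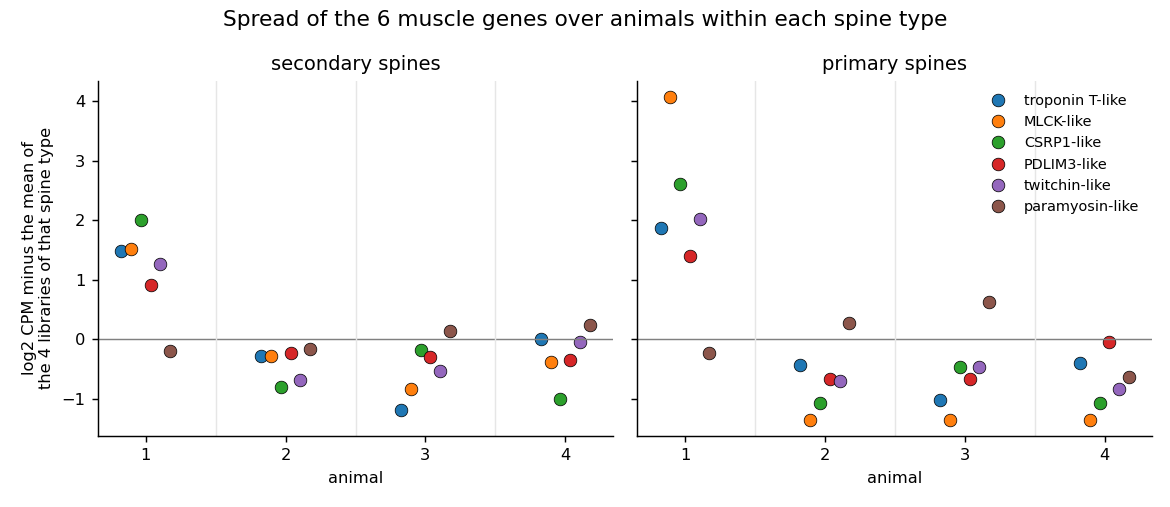
Log2 CPM (prior count 2) of each of the 6 genes minus its mean over the 4 libraries of the same spine type, for secondary spines (left) and primary spines (right), by animal. Each point is 1 gene in 1 library. In animal 1, 5 genes sat 0.90 to 1.99 above their secondary mean and 1.40 to 4.07 above their primary mean, and paramyosin-like sat 0.21 and 0.24 below.

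Averaged over the 6 genes, log2 CPM (prior count 2) was 5.75, 4.18, 4.10 and 4.33 in secondary libraries 1 to 4, against 2.04, -0.58, -0.48 and -0.64 in primary libraries 1 to 4. With a prior count of 0.5 the primary values were 1.94, -1.76, -1.65 and -1.65, so the averages of primary libraries 2 to 4 depend on the prior count. The primary spines of animal 1 lay between the other primary and the other secondary libraries. The 2 libraries of an animal shared the individual but also the collection, so animal and handling cannot be told apart, and over 4 animals no correlation was computed.

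The genes did not all keep the same ratio in the primary spines of animal 1. A muscle-type myosin heavy chain, LOC446191 (chromosome 10, 9634886 to 9705330), the motor protein of the thick filament, was used as a yardstick for muscle RNA. It was added by name. Its levels were 664, 143, 195 and 279.8 CPM in secondary libraries 1 to 4, against 185, 2.69, 0.106 and 0 CPM in primary libraries 1 to 4. Primary spines of animals 2 to 4 therefore had next to none of this transcript, while those of animal 1 had more of it than the secondary spines of animal 2. It did not pass the test over all 8 libraries (log2 fold change 2.77 ± 1.80, edgeR adjusted p = 0.497, and 0.0769 with the animal as a block) and was called higher without primary library 1 (edgeR adjusted p = 0.0139) and without animal 1 (edgeR adjusted p = 0.0269).

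Where heavy chain reads were plentiful, in the secondary libraries and primary library 1, twitchin-like was nearly constant relative to them. Its reads came to 13.2, 15.8, 12.9 and 12.6% of the heavy chain reads in secondary libraries 1 to 4, against 11.9% in primary library 1. In primary libraries 2 to 4 twitchin-like still had 32, 36 and 27 reads where the heavy chain had 27, 1 and 0, so there the ratio did not hold. Myosin regulatory light chain 12A-like LOC121425126, the substrate type of MLCK, came to 28.4, 33.8, 32.3 and 29.5% in the secondary libraries, against 27.4% in primary library 1. Myosin light chain 3-like LOC121411529 came to 24.8, 27.7, 20.8 and 29.2%, against 24.3%. For these 3 genes primary library 1 was thus within or just under the range of the secondary libraries. The 2 light chains were picked after their values were seen.

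MLCK-like, in contrast, came to 41.1, 55.1, 27.5 and 26.0% of the heavy chain reads in secondary libraries 1 to 4, against 4.53% in primary library 1. Troponin T-like came to 6.33, 8.62, 3.31 and 5.40% in the secondary libraries, against 0.697% in primary library 1. PDLIM3-like came to 2.77, 5.77, 4.02 and 2.70%, against 0.348%. These 3 genes were therefore scarce in the primary spines of animal 1 even per heavy chain read, below each of the 4 secondary libraries. They were chosen with their low primary counts known, so this is a description. CSRP1-like was the least clear of this kind, with 6.99, 4.56, 5.20 and 2.01% in the secondary libraries, against 1.28% in primary library 1. Paramyosin-like followed neither pattern, with 4.03, 19.2, 17.5 and 13.0% in the secondary libraries, against 4.07% in primary library 1, so it was equally low in both libraries of animal 1 on this scale.

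**Figure D3:**
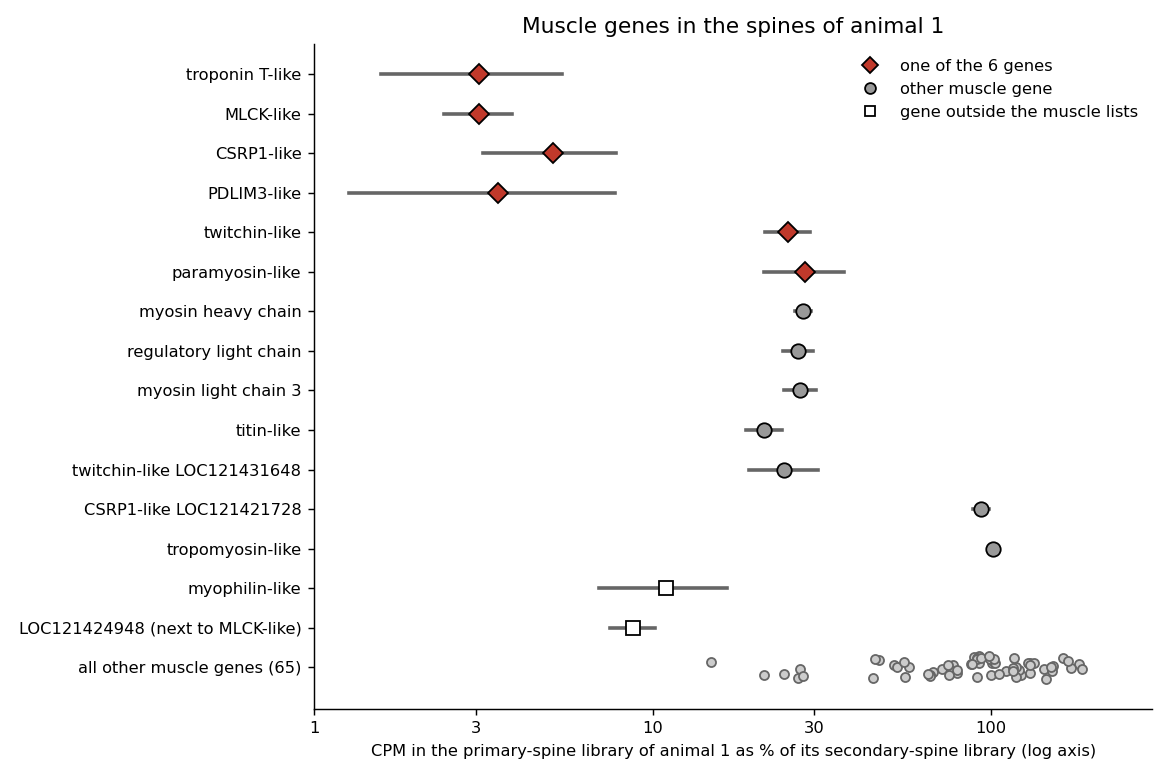
CPM in the primary-spine library of animal 1 as a percent of the CPM in its secondary-spine library (horizontal log axis), for the 6 genes (diamonds), 7 other muscle genes (circles) and 2 genes outside the muscle lists (squares), with 95% counting intervals as bars. The bottom row shows all 65 other muscle genes with at least 50 reads in secondary library 1, with random vertical offsets. Troponin T-like, MLCK-like, CSRP1-like and PDLIM3-like sit at 3.07 to 5.10%, the 2 squares at 8.73 and 11.0%, and the 65 genes run from 14.9 to 186% with a median of 92.5%.

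The lower level of these 4 genes in primary spines of animal 1 was also seen without the heavy chain as the yardstick. The 4 genes were chosen with their low primary counts known. Their place below the other genes given here therefore follows from that choice and is not a test. In animal 1 the primary level was 3.07% of the secondary one for troponin T-like (95% counting interval 1.57 to 5.41), 3.08% for MLCK-like (2.42 to 3.85), 5.10% for CSRP1-like (3.16 to 7.81) and 3.50% for PDLIM3-like (1.27 to 7.77). It was 25.1% for twitchin-like (21.4 to 29.2) and 28.1% for paramyosin-like (21.3 to 36.7), beside 27.9% for the heavy chain, 26.9% for regulatory light chain 12A-like and 27.3% for myosin light chain 3-like. Other muscle genes were mostly far higher. Over 65 other muscle genes with at least 50 reads in secondary library 1 the median was 92.5%, with tropomyosin-like LOC121415027 at 101% and another CSRP1-like gene, LOC121421728, at 93.5%. None of the 65 was at 10% or less, a level found in 0.917% of all such genes, 1 lay between 10 and 20% (PDZ and LIM domain protein 4-like LOC121409393, at 14.9%), and 5 lay between 20 and 30%. Outside the muscle lists, calmodulin LOC121418502 lay below all 4 genes, at 2.42% (1.67 to 3.4). Other values there filled the gap, with 8.73% for LOC121424948 (7.48 to 10.2), the gene next to MLCK-like, and 11.0% for myophilin-like LOC121414041 (6.96 to 16.6). The name patterns did not match myophilin-like, although its Swiss-Prot match is calponin-3. All these limits were set after the values were seen, the intervals come from 1 animal and cover counting error only, and there is no replicate check. No cause was tested. Of all tested genes with at least 10 primary reads, 0.317% had 80% or more of their primary CPM in library 1, a limit set after the values were seen, and troponin T-like, MLCK-like and CSRP1-like were among them.

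Tropomyosin-like LOC121415027, the partner of troponin on the thin filament, was more abundant per length than any of the 6 genes, at 164 ± 41.1 FPKM in secondary spines. It averaged 889 ± 223 CPM in secondary spines and 924 ± 212 CPM in primary spines (edgeR adjusted p = 0.956), so this 1 muscle-named transcript was not missing from primary spines. It did not follow the heavy chain, with 868, 784 and 807 CPM in primary libraries 2 to 4, and is no measure of muscle transcripts as a whole. Its fold change was near 0 with a sign that depended on the scaling, at -0.06 with TMM and 0.12 with library size alone.

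Of muscle genes picked by name patterns in 6 role lists, 71 of 80 passed the filter on low counts. In secondary spines 5 were called higher by edgeR at an adjusted p under 0.05 and 2 lower. Of the 5, 3 are among the 6 genes chosen on this contrast, which their calls do not test, and of the other 65 genes 2 were called higher and 2 lower. Over all tested genes 5.88% were called higher and 1.93% lower. The median log2 fold change of the list was 0.02, beside -0.03 over all tested genes. The share called was thus near the background, and most muscle-named genes did not follow the 6. With the animal as a block 12 were called higher and 7 lower (background 12.4 and 11.7%), and DESeq2 called 10 and 4 (background 8.34 and 4.57%). These higher calls include 6 and 5 of the 6 chosen genes. Of the other 65 genes the block called 6 higher and 7 lower, and DESeq2 called 5 and 4. Without primary library 1 there were 10 higher and 1 lower (background for higher 4.56%), and without animal 1 there were 10 and 0 (background for higher 3.27%). Of the 10 without primary library 1, 4 were genes other than the 6, namely the 2 light chains, twitchin-like LOC121431648 and titin-like LOC121432071. Of the 10 without animal 1, 5 were genes other than the 6.

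**Figure D4:**
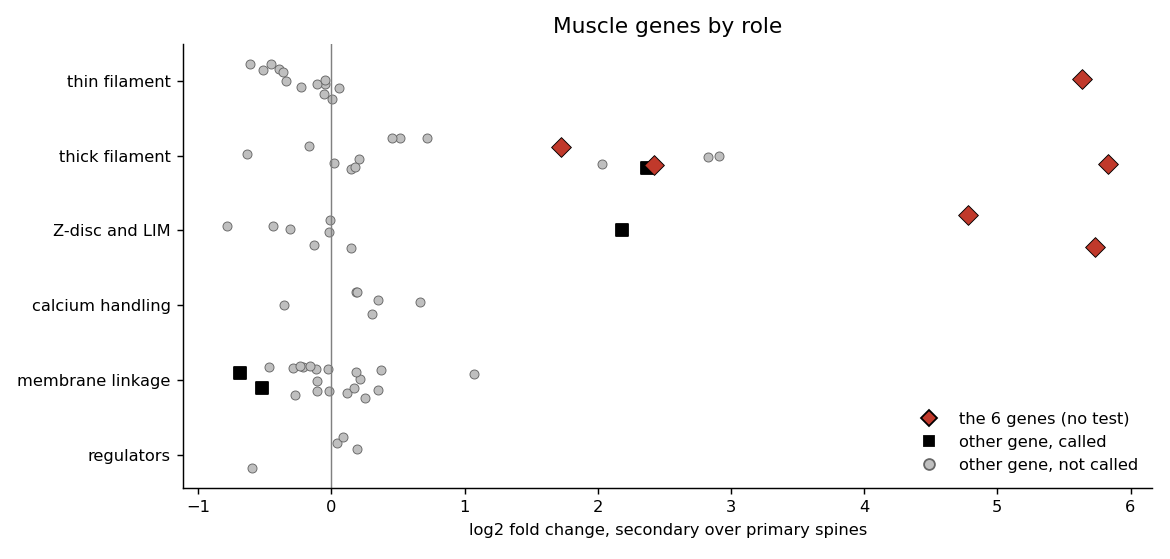
Log2 fold change of secondary over primary spines (horizontal axis) for 71 tested muscle genes in 6 role lists (rows, with random vertical offsets). Red diamonds are the 6 genes, black squares other genes called by edgeR at an adjusted p under 0.05, and grey circles genes not called. The 6 genes lie at 1.72 to 5.83, and the median of all 71 is 0.02.

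The role lists are given without the 6 genes, which the contrast had chosen. Of 13 other thin filament genes none was called, with 0 higher and 2 lower at an unadjusted p under 0.05 and 0 by DESeq2. Tropomyosin-2-like LOC121415055 averaged 318 ± 75.6 CPM in secondary spines and 487 ± 114 CPM in primary spines (edgeR adjusted p = 0.150, and 0.00278 lower with the block). Of 13 other thick filament genes 1, titin-like LOC121432071, was called higher. None was called lower, with 1 at an unadjusted p under 0.05 and 1 by DESeq2. In the higher direction there were 4 at an unadjusted p under 0.05 and 3 by DESeq2. With the animal as a block 5 of the 13 were called higher and 1 lower. The block called 12.4% of all tested genes higher and 11.7% lower, and DESeq2 called 8.34 and 4.57%. Titin-like, of the family of giant elastic filaments, had 159, 67.4, 50.6 and 78.6 CPM in secondary libraries 1 to 4, against 34.0, 15.6, 8.12 and 11.0 CPM in primary libraries 1 to 4. All its secondary libraries lay above its primary ones, and animal 1 was the highest of both types here too. Its log2 fold change was 2.37 ± 0.53 (edgeR adjusted p = 0.0284). This call was lost without secondary library 1, 2 or 4 or primary library 2, 3 or 4 (edgeR adjusted p = 0.0525 to 0.0846). It was kept with the animal as a block (edgeR adjusted p = 0.000139) and by DESeq2 (DESeq2 adjusted p = 5.17e-05). The gene overlaps another titin-like gene of the same strand by 425 bases, so a part of its reads is uncertain.

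Of 8 other Z-disc and LIM genes 1 was called higher, PDZ and LIM domain protein 4-like LOC121409393, a relative of PDLIM3. None was called lower, with 3 at an unadjusted p under 0.05 and 0 by DESeq2. The PDLIM4-like gene had a low level, 3.15 ± 1.42 CPM in secondary spines and 0.687 ± 0.363 CPM in primary spines. Its log2 fold change was 2.18 ± 0.53 at an edgeR adjusted p of 0.0417. Its call was lost without any single library except primary library 4 (edgeR adjusted p = 0.0639 to 0.130), and with no filter on low counts (edgeR adjusted p = 0.0764). The call was kept with the animal as a block (edgeR adjusted p = 0.0126) and by DESeq2 (DESeq2 adjusted p = 0.0039). None of 6 calcium handling genes was called by edgeR, with 2 at an unadjusted p under 0.05 and 1 called by DESeq2. The sarcoplasmic calcium pump gene LOC121409065, which returns calcium to its store, averaged 265.7 ± 34.3 CPM in secondary spines and 233 ± 10.4 CPM in primary spines (edgeR adjusted p = 0.463). The L-type calcium channel subunit beta-1-like gene LOC121426295 averaged 231 ± 34.4 CPM in secondary spines and 295.5 ± 53.0 CPM in primary spines (edgeR adjusted p = 0.272).

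Among 21 genes that link the contractile apparatus to the membrane, none was called higher in secondary spines, with 0 at an unadjusted p under 0.05 and 0 by DESeq2. Of the 21, 2 were called lower, as were 1.93% of all tested genes. Dystroglycan-like LOC121411331, a matrix receptor of the muscle membrane, averaged 372 ± 57.1 CPM in secondary spines and 599 ± 26.1 CPM in primary spines, and its log2 fold change was -0.69 ± 0.13 at an edgeR adjusted p of 0.0135. Its call was lost without animal 1, 2 or 3 (edgeR adjusted p = 0.0689, 0.0535 and 0.0986). The call was kept with the animal as a block (edgeR adjusted p = 0.00357) and by DESeq2 (DESeq2 adjusted p = 3.81e-05). Myoferlin-like LOC121425408, a membrane repair protein, averaged 1199 ± 79.4 CPM in secondary spines and 1723 ± 244 CPM in primary spines, and its log2 fold change was -0.52 ± 0.13 at an edgeR adjusted p of 0.0434. The myoferlin call was lost without any single library except primary library 2 (edgeR adjusted p = 0.0818 to 0.123), with library size alone as the scaling (log2 fold change -0.36, edgeR adjusted p = 0.175) and with no filter on low counts (edgeR adjusted p = 0.0529). It was kept with the animal as a block (edgeR adjusted p = 0.0149) and by DESeq2 (DESeq2 adjusted p = 0.00224). Of 4 muscle regulators none was called, none had an unadjusted p under 0.05, and DESeq2 called none. Myocyte-specific enhancer factor 2A-like LOC121415207, a muscle transcription factor in vertebrates and flies, averaged 172 ± 13.2 CPM in secondary spines and 150.5 ± 7.91 CPM in primary spines (edgeR adjusted p = 0.357). Myocardin-related transcription factor A-like LOC121423027, a cofactor of serum response factor, averaged 151 ± 19.0 CPM in secondary spines and 143 ± 17.5 CPM in primary spines (edgeR adjusted p = 0.854).

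Genes that carry the same product name as the 6 mostly did not share their pattern. Another 6 troponin genes were tested and none was called by edgeR, also with the block and by DESeq2, and none had an unadjusted p under 0.05. Their log2 fold changes were -0.39 to 0.06, and the signs of all except troponin I-like LOC121421054 turned under at least 1 alternative. The other MLCK, smooth muscle-like gene, LOC121425215, averaged 83.2 ± 12.8 CPM in secondary spines and 50.4 ± 21.7 CPM in primary spines (log2 fold change 0.72 ± 0.33, edgeR adjusted p = 0.281, and 0.0320 with the block). It was thus present in every library, including those in which MLCK-like LOC121424934 had no read. PDZ and LIM domain protein 5-like LOC121431963 averaged 139 ± 37.4 CPM in secondary spines and 140.4 ± 23.0 CPM in primary spines (edgeR adjusted p = 0.990).

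One further twitchin-like gene, LOC121431648 (chromosome 1, 66941869 to 67057433), came close to the pattern of the first. It averaged 20.8 ± 13.5 CPM in secondary spines and 5.08 ± 3.37 CPM in primary spines, with a log2 fold change of 2.03 ± 0.57. It missed the threshold (edgeR adjusted p = 0.0726) and was called with the block (edgeR adjusted p = 0.00235). The other 4 twitchin-like genes tested had log2 fold changes of -0.15 to 0.21 and adjusted p of 0.789 to 0.974, and 1 of them, LOC121410392, has fibronectin as its Swiss-Prot match. No second paramyosin gene was named in the table. Reads of near-identical copies may have been split or dropped by the counting, and how similar these sequences are was not examined.

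The pattern over all 8 libraries was also compared with that of every tested gene, by the root-mean-square difference between its mean-centred log2 CPM and the mean profile of the 6. This measure repeats the contrast between the spine types and is a description. Over 12722 genes with an informative name the median difference was 2.49 log2 units. The nearest were MECOM-like LOC121427404, a zinc finger transcription regulator, at 0.330, neuronal acetylcholine receptor subunit alpha-7-like LOC121415501, a ligand-gated ion channel, at 0.407, and myophilin-like LOC121414041, with calponin-3, an actin-binding protein, as its Swiss-Prot match, at 0.422. Retinol dehydrogenase 12-like LOC121408355 followed at 0.467, soluble guanylate cyclase beta-1-like LOC121430606, a subunit of the nitric oxide receptor, at 0.522, and calmodulin LOC121418502, the calcium sensor that activates MLCK, at 0.642. PDLIM3-like itself was at 0.406, troponin T-like at 0.513, CSRP1-like at 0.547, twitchin-like at 0.899, paramyosin-like at 1.75 and MLCK-like at 1.76. With profiles scaled to unit SD, MLCK-like ranked 4 among all tested genes and paramyosin-like 938, and 3 of the 6 nearest genes stayed among the nearest 6.

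**Figure D5:**
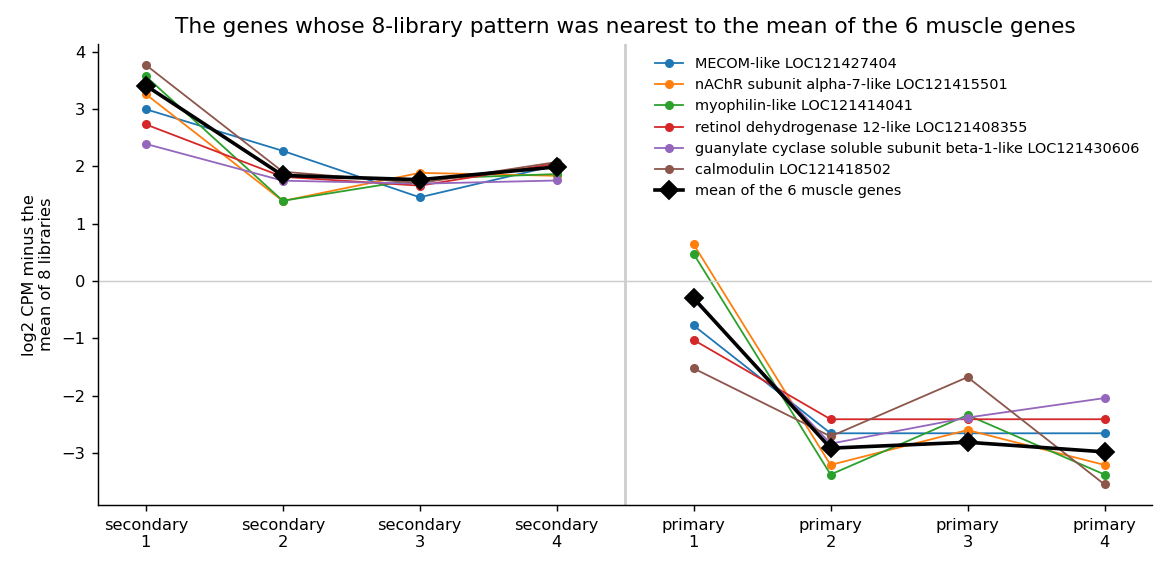
Mean-centred log2 CPM (prior count 2, vertical axis) in secondary libraries 1 to 4 (left) and primary libraries 1 to 4 (right) for the mean of the 6 muscle genes (black diamonds) and for the 6 named genes nearest to it (coloured). Each point is 1 library and lines only join libraries of 1 spine type. All 7 profiles are highest in animal 1 in both spine types.

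Calmodulin LOC121418502 had 151, 41.4, 36.1 and 46.6 CPM in secondary libraries 1 to 4, against 3.66, 1.50, 3.27 and 0.748 CPM in primary libraries 1 to 4. Animal 1 was the highest in both types, and all primary libraries had some reads. The myophilin-like gene had 24.5, 5.29, 6.95 and 7.38 CPM in secondary libraries, against 2.69, 0, 0.211 and 0 CPM in primary libraries 1 to 4. Acetylcholine receptor alpha-7-like had 17.6, 4.68, 6.65 and 6.41 CPM in secondary libraries, against 2.69, 0, 0.106 and 0 CPM in primary libraries. Both were high in animal 1 in either spine type and at or near 0 in the other primary libraries.

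The 6 genes are spread over 3 chromosomes. MLCK-like and paramyosin-like lie 4.58 Mb apart on chromosome 1, with twitchin-like 20.3 Mb from MLCK-like, and CSRP1-like and troponin T-like lie 8.78 Mb apart on chromosome 9. None of them overlaps another annotated gene. Of their 12 direct neighbours 8 were tested and 1 was called higher, where 5.88% of all tested genes were. This was the uncharacterized gene LOC121421087, 14264 bases from CSRP1-like on the other strand. It had 41.3, 24.6, 29.2 and 30.1 CPM in secondary libraries 1 to 4, against 8.28, 9.87, 7.70 and 5.77 CPM in primary libraries 1 to 4 (log2 fold change 1.98 ± 0.23, edgeR adjusted p = 0.00218). It was thus present in all primary libraries, unlike CSRP1-like. The uncharacterized gene LOC121424948, picked after its values were seen, lies 2872 bases upstream of MLCK-like on the same strand and had 228, 45.4, 37.3 and 65.6 CPM in secondary libraries 1 to 4, against 19.9, 0, 0 and 0 CPM in primary libraries 1 to 4. Its presence and absence matched those of MLCK-like library by library. It did not pass the test over all libraries (log2 fold change 4.24 ± 1.68, edgeR adjusted p = 0.205) and was called with the block (edgeR adjusted p = 0.0212), without primary library 1 (edgeR adjusted p = 0.0153) and without animal 1 (edgeR adjusted p = 0.0121). The neighbour on the other side of MLCK-like, striated muscle preferentially expressed protein kinase-like LOC121424918, was not called, with a log2 fold change of 0.25 at an edgeR adjusted p of 0.788.

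Markers of other cells in a spine also differed between the libraries. Over all tested genes 5.88% were called higher in secondary spines and 1.93% lower. These shares were 12.4 and 11.7% with the animal as a block, and 8.34 and 4.57% by DESeq2. Ciliated epithelium genes summed to 6474 to 8324 CPM in secondary spines and 1206 to 2529 CPM in primary spines, with 55 of 65 called higher, but secondary library 1, the highest for 5 of the 6 muscle genes, was the lowest of the secondary libraries in this sum. Connective tissue genes summed to 1120 to 2551 CPM in secondary spines and 1348 to 1708 CPM in primary spines. Secondary library 1 was the highest of all. Of 28 tested, edgeR called 2 higher and none lower, with 5 higher and 5 lower at an unadjusted p under 0.05. The block called 4 higher and 7 lower, and DESeq2 called 4 and 3. Neuron genes summed to 1969 to 2578 CPM in secondary spines and 2414 to 3085 CPM in primary spines, and animal 1 was the highest in both types. Of 23 tested, 1 was called higher and 0 lower. The block called 5 higher and 2 lower, and DESeq2 called 2 and 2. Thin and thick filament genes together summed to 2810 to 4305 CPM in secondary spines and 2701 to 3792 CPM in primary spines, again with animal 1 highest in both. This muscle sum includes 4 of the 6 genes and is not independent of them. Skeletogenic genes (223.5 to 1407 CPM in secondary and 195.9 to 1100 CPM in primary spines) and coelomocyte and pigment genes (1574 to 2384 CPM in secondary and 1579 to 4053 CPM in primary spines) had no called member among 13 and 11 tested by edgeR, 0 at an unadjusted p under 0.05 and 0 by DESeq2. With the block, 2 coelomocyte and pigment genes were called higher. Genes with no read numbered 4 of 73 for cilia, 2 of 39 for connective tissue, 1 of 27 for neurons, 3 of 19 for skeletogenic cells and 0 of 15 for coelomocytes and pigment cells, and these were copies of CFAP251-like, collagen alpha-1(I)-like and 30 kDa spicule matrix genes and a synaptotagmin-12-like gene. The part of these cell types in the levels of the 6 muscle genes was not tested.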

How the data were processed

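Poly-T beads were used to select messenger RNA, per the labels' protocols. Alignment and counting tools named in the submitters' processing notes are HISAT2 2.0.5 with featureCounts, and assembly 3.0 of this species is named in the series' design text. The strand setting and the handling of reads with several alignments are not given in the sources used here. The deposited counts are whole reads per gene for 26814 genes, per the file headers, and the deposited FPKM are the authors' length-scaled values of the same genes. IDs, starts and ends of all 26814 genes were found in the Lvar_3.0 reference table, which gave the chromosome numbers.

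Groups came from the titles. CPM values are TMM-scaled. Calls came from the quasi-likelihood test of edgeR 4.0.16 (R 4.3.3, robust, filterByExpr, group as the only term) on 16788 genes, two-sided, with Benjamini-Hochberg adjusted p below 0.05. Log2 fold changes are secondary over primary. Standard errors are the fold change over the square root of F. The test was run on simulated counts first. The simulated libraries were independent, with no animal effect and a smaller spread than these data had. That run therefore does not check the test on paired or highly variable genes. Nothing in the sources gives a second collection per animal, so p-values measure the spread between these 4 animals. The fit with group as the only term treats the 8 libraries as independent and leaves out the pairing by animal. Only the fit with the animal as a block uses that pairing.

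Both spine types came from the same animals, per the design text. The correlation of deviations from group means was 0.733 to 0.811 for libraries with the same number, and -0.317 to -0.200 for the rest, so numbers were taken as animals. No 2 libraries of a group were duplicates (mean chi-square per gene 37.1 to 59.6). The common biological coefficient of variation was 0.470, and 0.183 with the animal as a block.

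The 6 genes and all lists were chosen with earlier results of these data known. Name patterns matched 113 entries for muscle, and 33 of unrelated meaning were removed. Named genes were the 6, up to 4 called genes per role list or else its 2 most abundant, the same-name genes (at most 6 per name, by level) and the 6 nearest patterns. LOC446191, the 2 light chains, LOC121424948 and LOC121421087 were added outside this rule. DESeq2 1.42.0, the replicate block, RLE and library-size scaling, no filter, and leaving out libraries or animals were the alternatives.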

Additional observations from a re-analysis of the deposited data

Results flagged for a closer look

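Within a group of 4 libraries, a library was listed here when its gap to the nearest other library, divided by the range of the group, exceeded Dixon's 95% critical value for 4 samples. Of the 12 groups formed by the 6 genes and 2 spine types, 8 met this, and the library was number 1 each time. For normally distributed values chance gives about 1 in 20. That rate does not hold for low counts with many at 0, as in most of the primary groups, so the 8 cannot be set against it. For troponin T-like the primary value was 0.917. For MLCK-like the values were 0.886 in secondary spines and 1.0 in primary spines, where the other 3 libraries had no read. For CSRP1-like they were 0.890 in secondary spines and 0.955 in primary spines, and for PDLIM3-like 0.937 in secondary spines and 0.834 in primary spines, the last on 6 reads against 0, 0 and 1. For twitchin-like the primary value was 0.952. These values are not independent, since all come from 2 libraries of 1 animal.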

How the results depend on the processing

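Over all genes, 987 were called higher and 324 lower in secondary spines. The replicate block gave 2077 and 1964, DESeq2 gave 1400 and 767, and library size alone gave 1225 and 168. Leaving out a library or an animal gave 529 to 877 higher and 94 to 254 lower. Of the 71 muscle genes, 5 and 2 were called. The block gave 12 and 7, DESeq2 10 and 4, library size alone 9 and 1 with a median log2 fold change of 0.18, no filter 1 lower, and the original name patterns, an alternative chosen after seeing the data, 4 lower. Of the higher calls, 6 with the block, 5 by DESeq2 and 4 with library size alone were among the 6 chosen genes. Leaving out a library or an animal gave 1 to 10 higher and 0 to 2 lower. The 5 higher calls were all shared with the block. Among the named genes given with a test, the pairing by animal (replicate block) changed no call other than those stated beside it. Directions turned for genes near 0. With the block, LOC121421102 was at 0.042, LOC121421806 at 0.047 and LOC121421575 at -0.035. With library size alone, LOC121415027 was at 0.12, LOC121421102 at 0.036, LOC121421806 at 0.086, LOC121431963 at 0.15 and LOC121410392 at 0.02. Without a filter, LOC121421575 was at -0.002. When a library or an animal was left out, log2 fold changes ran from -0.32 to 0.01 for LOC121410392, -0.25 to 0.12 for LOC121415027, -0.12 to 0.52 for LOC121417797, -0.47 to 0.89 for LOC121417818, -0.19 to 0.36 for LOC121420945, -0.50 to 0.30 for LOC121421102, -0.23 to 0.34 for LOC121421575, -0.83 to 0.10 for LOC121421639, -4.13 to 6.74 for LOC121421728, -0.67 to 0.69 for LOC121421806 and -0.19 to 0.14 for LOC121431963. The cause of these shifts was not tested. Depth limits the primary values of troponin T-like, MLCK-like, CSRP1-like and PDLIM3-like, which rest on 14, 78, 23 and 7 reads in all.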

Other observations

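A second gene named cysteine and glycine-rich protein 1-like, LOC121421728 (chromosome 9, 15962581 to 15980566), had most of its reads in animal 1 in both spine types. It had 2829, 0, 109 and 3 reads in secondary libraries 1 to 4, and its levels were 274, 0, 10.8 and 0.264 CPM in secondary libraries, against 256, 0, 2.00 and 0 CPM in primary libraries 1 to 4 (log2 fold change 0.14 ± 2.41, edgeR adjusted p = 0.993). Another gene of that name, LOC121421536 (chromosome 9, 15662988 to 15690681), had 0, 2.44, 4.97 and 3.78 CPM in secondary libraries 1 to 4 and no read in any primary library. Both genes thus had reads in secondary library 3. The 3 genes of this name lie between 15662988 and 16515670 of chromosome 9. Whether reads moved between these copies was not tested.

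Genes with 80% or more of their primary CPM in library 1, and at least 10 primary reads, were 53 of 16735, or 0.317%. Of 76 muscle genes from the role lists and the added names, 7 were among them, 3 of these from the 6 genes of the report. The limit of 80% was set after values were seen. The most abundant of the 53 was a gene named actin, cytoskeletal, LOC121424881, which had 1762, 381, 604 and 893 CPM in secondary libraries 1 to 4, against 785, 0.399, 1.06 and 1.07 CPM in primary libraries 1 to 4. Its primary level in animal 1 was 44.6% of the secondary one, compared with 3.08% for MLCK-like. Gelsolin-like protein 1 LOC121431867, an actin-severing protein, had 39.8, 6.31, 13.8 and 29.3 CPM in secondary libraries, against 15.2, 0, 0.106 and 0 CPM in primary libraries. A gene named putative uncharacterized protein MYH16, LOC121422719, had 71.0, 13.6, 9.04 and 54.2 CPM in secondary libraries, against 16.6, 2.09, 0 and 0 CPM in primary libraries.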
